A study of Rattus norvegicus with 12 samples.

Results

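Transcripts of 8 ion channel genes were followed in the left ventricle of rats with and without myocardial infarction (MI): Scn4b, Scn3b and Scn7a of the voltage-gated sodium channel family, Gja1, Gja5 and Gjc1, which encode gap junction proteins, and Hcn2 and Hcn4, which encode pacemaker channels. The genes were taken by symbol from the table of reads per gene. All 8 were found among its 30560 genes, and all 8 were among the 18182 genes that had at least 10 reads over the 12 rats and were tested.

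The hearts came from male Wistar rats operated on at 7 weeks of age. In 8 of the 12 rats the left anterior descending coronary artery was tied permanently. From 24 h after surgery and for 8 weeks, 4 of these received vehicle by gavage (MI, rats 36, 57, 61 and 89) and 4 received urolithin A, a gut microbial metabolite of ellagitannins that induces mitophagy, at 50 mg/ml as the design text gives it (MI + UA, rats 29, 58, 64 and 66). The remaining 4 rats had the chest opened without a suture around the artery and received the same vehicle (Sham, rats 12, 17, 32 and 38). A different dose and start of treatment stand in the results text of the study. The atria had been removed, and each library came from 20 µm formalin-fixed, paraffin-embedded sections of the middle block of the left ventricle of a single rat, so that spared and scarred muscle were read together.

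Sodium channels open on depolarisation and carry the upstroke of the cardiac action potential, and their β subunits set how the pore-forming α subunit is trafficked and inactivated. Gap junctions are built from connexins and pass the current from cell to cell. Connexin 43 prevails in working ventricular muscle, connexin 40 in the atria, the His-Purkinje system and arterial endothelium, and connexin 45 in the nodes and conduction system. HCN channels carry the hyperpolarisation-activated current of pacemaker cells, with Hcn4 the main form in the sinus node and Hcn2 found also in working muscle.

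Scn4b and Gja1 were the members with lower levels in MI than in Sham past the test. RefSeq promoter windows of the GRCr8 build were at hand for 5 of the 8 members, namely Scn4b, Scn7a, Gja1, Gja5 and Hcn2. The 250 bases before the annotated start are shown for Scn4b (chr8:54343623-54343872, + strand) and Gja1 (chr20:36302314-36302563, + strand), since these carried the falls described below. Capitals mark letters of the motifs searched on both strands: AGATAA for GATA factors, TGANTCA for AP-1, GGTGTGA for T-box factors, CATTCC for TEAD factors, GGGCGG for the GC box and CACGTG for the E box.
Scn4b: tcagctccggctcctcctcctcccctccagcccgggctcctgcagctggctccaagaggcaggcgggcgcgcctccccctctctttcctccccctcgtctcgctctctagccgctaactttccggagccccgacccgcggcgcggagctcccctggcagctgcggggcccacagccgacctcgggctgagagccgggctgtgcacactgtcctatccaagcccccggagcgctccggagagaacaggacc
Gja1: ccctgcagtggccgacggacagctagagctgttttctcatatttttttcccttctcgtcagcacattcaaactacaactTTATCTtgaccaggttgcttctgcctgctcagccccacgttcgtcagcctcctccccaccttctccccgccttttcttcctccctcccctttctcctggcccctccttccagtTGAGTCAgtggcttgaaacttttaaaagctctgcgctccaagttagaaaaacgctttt
The Scn4b window held none of the 6 motifs, and 71.6% of its letters were G or C. In the Gja1 window, with 51.2% G or C, a GATA motif began at base -171 and an AP-1 motif at base -58 relative to the start, without overlap between them. Among 33469 rat promoter windows of the same length, 10.3% held the GATA motif and 6.34% the AP-1 motif. The GC box, present in 30.5% of all windows, was found once in Scn7a and Gja5 and 3 times in Hcn2, the only member of the 5 with a TEAD motif (12.1% of all windows). These matches describe letters in a window, and no binding was measured.

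Between 6228706 and 19031695 reads fell on genes per rat, and the 13 mitochondrially encoded genes took 50.2% to 58.6% of them. Reads that the counter tallied outside the genes made up 51.7% to 53.1% of all tallied reads in Sham, 55.2% to 56.7% in MI and 52.8% to 57.1% in MI + UA, and those on no annotated feature 42.5% to 45.5%, 46.1% to 48.9% and 45.0% to 50.2%. Sham and MI did not overlap in either share, whose part in the differences between MI and Sham was not tested. Levels are given as CPM, reads on a gene scaled to a library size of 1000000 reads on genes after TMM scaling. Cardiomyocyte markers were abundant in every rat, with a sum of 9 genes between 16216 and 19677 CPM in Sham and between 11598 and 12462 CPM in MI, and 8 of the 9 were lower in MI past the test described next, with 5 to 9 when each rat was left out (5 without Sham rat 38). Of 9 fibroblast markers 7 were higher, and of 6 macrophage markers 5 were higher, where 5.53% of all tested genes passed as lower and 5.82% as higher. Atrial markers other than Nppa (Sln, Myl7, Myl4 and Bmp10) summed to 2.85 to 13.2 CPM over the 12 rats.

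In MI versus Sham, 3 of the 8 channel genes passed edgeR's quasi-likelihood test at an adjusted p of 0.05, against 11.4% of all tested genes. Of these 2 were lower (5.53% of all genes) and 1 was higher (5.82%). Without overlap between the MI and Sham rats were 5 of the 8, against 15.7% of all tested genes, 3 of them higher (8.12%) and 2 lower (7.56%). In MI + UA versus MI, 0 of the 8 passed, as did 0% of all genes in edgeR and 0 genes in DESeq2. An unadjusted p-value under 0.05 was reached by 3 members in either tool, against 3.79% of all tested genes in edgeR, and at 0 members did these groups separate without overlap (2.34% of all genes). Between MI + UA and Sham, 2 of the 8 passed, against 9.44% of all genes, 1 higher (5.16%) and 1 lower (4.27%), and the same 2 separated without overlap (14.3% of all genes). The MI rats enter the first and the second comparison and the Sham rats the first and the third, so the comparisons are not independent of each other. The members' median log2 fold change was 0.10 in MI versus Sham, where that of all tested genes was 0.03, and the members moved in both directions.

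**Figure D1:**
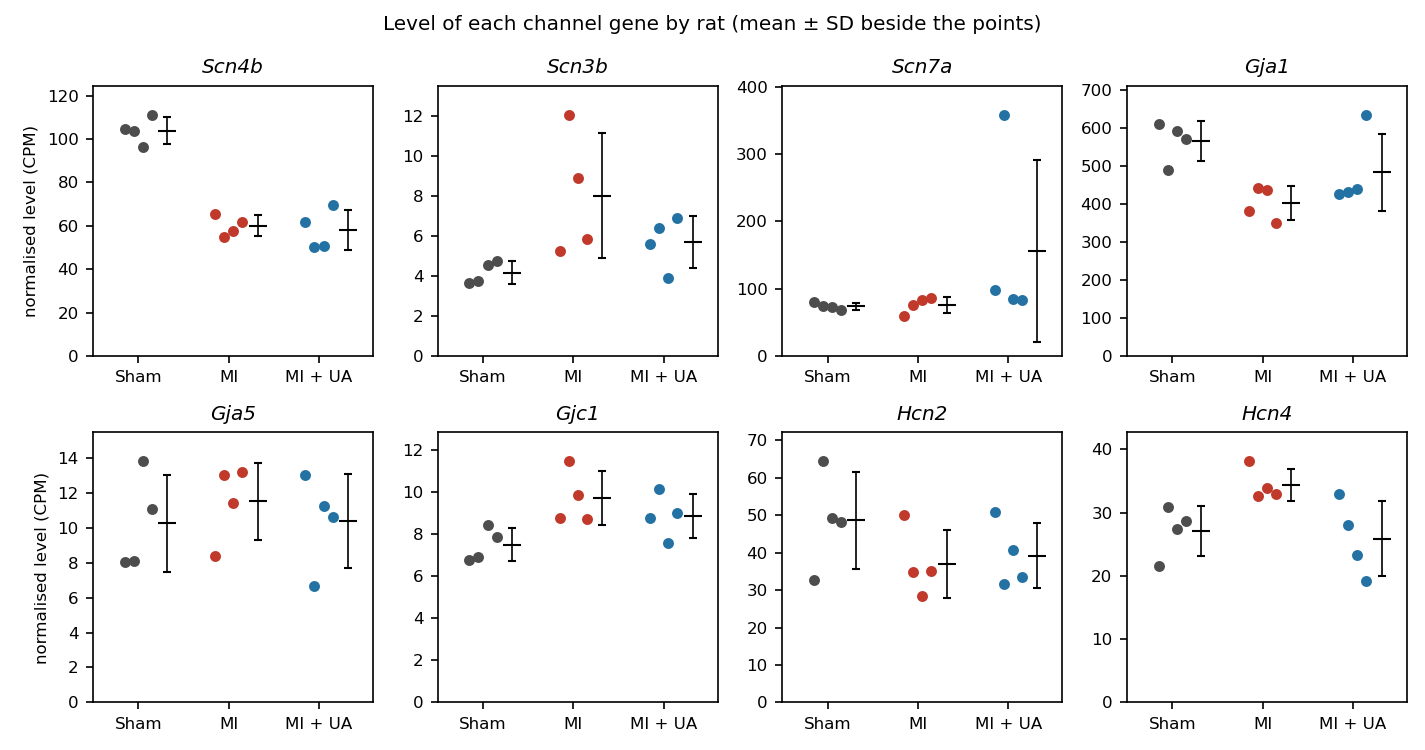
Level of each channel gene in CPM (vertical axis, from 0) in each of the 12 rats by group, with the group mean and SD beside the points (n = 4). Scn4b and Gja1 lie lower and Scn3b higher in MI than in Sham without overlap, and a single MI + UA rat stands at 358 CPM for Scn7a.

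Scn4b (ENSRNOG00000026679), which encodes the β4 subunit of the sodium channel, fell the most among the members. It was read at 104, 104, 96.3 and 111 CPM in Sham rats 12, 17, 32 and 38, at 65.7, 54.9, 57.4 and 61.9 CPM in MI rats 36, 57, 61 and 89, and at 61.8, 50.1, 50.6 and 69.6 CPM in MI + UA rats 29, 58, 64 and 66. Every infarcted rat, treated or not, was below every Sham rat, and the treated and untreated infarcted rats were interleaved. The log2 fold change was -0.79 in MI versus Sham (standard error 0.10, edgeR adjusted p = 3.57e-05), from 104 ± 6.07 to 60.0 ± 4.78 CPM (SD, n = 4 each). Against Sham, MI + UA stood at -0.83 (standard error 0.10, edgeR adjusted p = 2.54e-05). Against MI it stood at -0.04, with a 95% confidence interval from -0.25 to 0.17. The fall in MI versus Sham kept its call in 8 of 8 edgeR fits that each left out 1 rat, at log2 fold changes between -0.84 and -0.75.

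In bulk tissue, fewer cells of a type and less RNA per cell cannot be told apart. The summed cardiomyocyte markers were themselves lower in MI than in Sham by a log2 difference of -0.57, and relative to that sum within each rat Scn4b differed by -0.23 between the groups, which then overlapped. On the same scale Scn4b was lower in MI + UA than in Sham without overlap (a log2 difference of -0.41), as were 0.22% of all tested genes. With either direction counted the share of all genes was 31.9%. The sum itself differed by -0.44 between MI + UA and Sham, which shifts every gene upward on this scale. The share of 0.22% is thus small by construction and does not measure how unusual Scn4b is. The part of the cardiomyocyte markers in the fall of Scn4b was not tested. The genes most like Scn4b in their course over the 12 rats, by the root mean square difference of log2 CPM centred on each gene's mean among 10922 genes, were Rpl3l, a ribosomal protein paralog of striated muscle (0.091), Ech1, an enzyme of fatty acid oxidation (0.106), and Asb14 (0.115). Scn4b itself varied around its mean by 0.412 on this measure. Rpl3l fell by 0.82, Ech1 by 0.79 and Asb14 by 0.78 in log2 fold change in MI versus Sham.

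Scn3b (ENSRNOG00000057221), encoding the β3 subunit, moved the other way. It was counted at 26 to 40 reads per Sham rat, so that its values rest on few reads. The Sham rats were at 3.64, 3.75, 4.55 and 4.77 CPM, the MI rats at 5.26, 12.1, 8.93 and 5.87 CPM, and the MI + UA rats at 5.60, 6.42, 3.92 and 6.92 CPM, in the order of rats used above. All 4 MI rats were above all 4 Sham rats, but MI rats 57 and 61 were well above the other MI rats, and MI + UA rat 64 lay among the Sham rats. The log2 fold change in MI versus Sham was 0.90 (standard error 0.25, edgeR adjusted p = 0.0228), with a 95% confidence interval from 0.37 to 1.42. That call was lost without Sham rat 12 (edgeR adjusted p = 0.0695), Sham rat 17 (0.0640), MI rat 57 (0.0748) or MI rat 61 (0.0709), and the fold change without MI rat 57 was 0.66. MI + UA differed from MI by -0.42 (95% confidence interval -0.90 to 0.06, and -0.19 without MI rat 57) and from Sham by 0.47 (-0.05 to 1.00), neither past the threshold. The nearest courses were those of Epha1 (0.171), Pmaip1 (0.212) and Enah (0.240), against a spread of Scn3b around its own mean of 0.488.

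Scn7a (ENSRNOG00000029342) encodes Nax, an atypical member of the sodium channel family that responds to extracellular sodium and is known from glia and Schwann cells. It stood at 80.5, 74.0, 72.6 and 68.3 CPM in Sham, at 58.8, 76.4, 82.6 and 86.3 CPM in MI, and at 97.4, 358, 84.9 and 83.4 CPM in MI + UA. Rat 58 held 2788 reads of this gene and was 3.68 times the highest of the other 11 rats, which ran from 58.8 to 97.4 CPM. MI and Sham overlapped, with a log2 fold change of 0.04 (95% confidence interval -0.64 to 0.72). The MI + UA rats were all above the Sham rats, and the log2 fold change was 1.07 (standard error 0.32, edgeR adjusted p = 0.0421). Without rat 58 it was 0.26 (edgeR adjusted p = 0.196), so that its size rests on this rat. The call was also lost in DESeq2 (adjusted p = 0.106), with edgeR's filterByExpr (0.0507), with MI left out of the edgeR fit (0.0597) and when any 1 of the 4 Sham rats was left out. Against MI, the log2 fold change of 1.03 in MI + UA (edgeR unadjusted p = 0.00449, adjusted p = 1.00) became 0.22 without rat 58.

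The same library was high in Schwann cell markers. Their sum over 7 genes was 91.7 CPM in rat 58, 22.9 to 27.7 CPM in Sham, 33.1 to 46.5 CPM in MI, and 32.1 to 41.9 CPM in the other MI + UA rats. Sox10, the transcription factor that defines the lineage, was at 28.3 CPM in rat 58 against at most 11.6 CPM elsewhere. Cdh19, a cadherin of the same lineage, was at 24.4 CPM against at most 10.6 CPM. Mbp and Prx, which mark myelinating cells, were not high there, at 1.28 and 3.72 CPM. S100b was highest in rat 58, at 5.27 CPM. Of 11986 genes with an average log2 CPM of at least 1, 32 were over 2 times as high in rat 58 as in any other rat, Scn7a being the sixth of them by this ratio, while the other 11 rats had 0 to 5 such genes each. The part of Schwann cells in the Scn7a level of rat 58 was not tested.

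**Figure D2:**
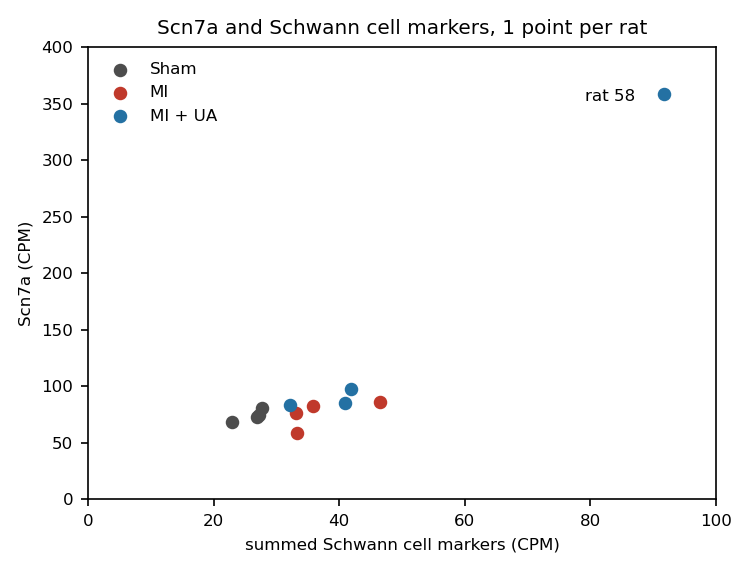
Scn7a in CPM (vertical axis) against the summed CPM of 7 Schwann cell markers (horizontal axis), 1 point per rat, coloured by group. The other 11 rats lie between 22.9 and 46.5 CPM of markers and below 100 CPM of Scn7a, and MI + UA rat 58 stands alone at 91.7 and 358 CPM.

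Gja1 (ENSRNOG00000000805) encodes connexin 43, the gap junction protein of the intercalated discs of ventricular muscle. Its level was 609, 489, 593 and 572 CPM in Sham, 383, 442, 438 and 349 CPM in MI, and 428, 431, 441 and 635 CPM in MI + UA. All MI rats were below all Sham rats. In MI + UA, rats 29, 58 and 64 lay close together among the higher MI rats and below all Sham rats, and rat 66 was above every Sham rat. The log2 fold change in MI versus Sham was -0.49 (standard error 0.12, edgeR adjusted p = 0.00835), from 566 ± 53.5 to 403 ± 45.1 CPM (SD, n = 4 each). It kept its call in 8 of 8 fits without 1 rat, between -0.55 and -0.43.

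In MI + UA versus MI the log2 fold change of Gja1 was 0.26, with a 95% confidence interval from 0.02 to 0.51 (edgeR unadjusted p = 0.0355, adjusted p = 1.00), and it became 0.10 without rat 66. Against Sham it was -0.23 (95% confidence interval -0.47 to 0.02, edgeR adjusted p = 0.271). Without rat 66 it was -0.39, and Gja1 then passed the threshold as lower than Sham (edgeR adjusted p = 0.0101). Rat 66 is a UA rat by its sample label, but a supplementary listing of the study places it with the vehicle-treated MI rats, and the label was followed here. Relative to the summed cardiomyocyte markers within each rat, Gja1 differed by 0.07 between MI and Sham, with overlapping groups. The part of the cardiomyocyte markers in the fall of Gja1 was not tested. The genes nearest in course were Clybl, a mitochondrial enzyme (0.118), Cacnb2, the β2 subunit of the L-type calcium channel (0.119), and Oser1 (0.126), against a spread of Gja1 around its mean of 0.267.

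The other connexins moved less. Gjc1 (ENSRNOG00000048838), encoding connexin 45, was at 6.77, 6.93, 8.42 and 7.87 CPM in Sham and at 8.77, 11.4, 9.86 and 8.72 CPM in MI, on 48 to 120 reads per rat. The MI rats were all above the Sham rats, the lowest of them by a small margin. The log2 fold change of 0.36 (95% confidence interval 0.05 to 0.67) missed the threshold after adjustment over all genes (edgeR adjusted p = 0.139). MI + UA ran from 7.58 to 10.1 CPM and overlapped both groups, with a log2 fold change of -0.11 against MI (95% confidence interval -0.41 to 0.18). Gja5 (ENSRNOG00000017484), encoding connexin 40, ranged from 8.03 to 13.8 CPM in Sham, from 8.41 to 13.2 CPM in MI and from 6.68 to 13.0 CPM in MI + UA. The 3 groups overlapped throughout. Its log2 fold change was 0.16 in MI versus Sham (95% confidence interval -0.26 to 0.59) and -0.11 in MI + UA versus MI (-0.52 to 0.30). Of 6 arterial endothelial markers, 0 passed in edgeR between MI and Sham, against 2 with an unadjusted p-value under 0.05, and DESeq2 gave the same 2 counts. Over all genes tested, 11.4% passed in edgeR in that comparison, and without MI rat 36 1 of the 6 markers passed as lower in MI. Their sum was 61.9 to 69.3 CPM in Sham and 48.4 to 58.5 CPM in MI.

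Of the pacemaker channels, Hcn4 (ENSRNOG00000009450) was at 21.6, 30.9, 27.4 and 28.6 CPM in Sham, at 38.1, 32.6, 33.9 and 33.0 CPM in MI, and at 33.0, 28.0, 23.3 and 19.2 CPM in MI + UA. The MI rats were all above the Sham rats, and 3 of the 4 MI + UA rats were within or below the range of Sham, the highest of them just above the lowest MI rat. The log2 fold change was 0.35 in MI versus Sham (95% confidence interval 0.05 to 0.64, edgeR adjusted p = 0.127) and -0.41 in MI + UA versus MI (-0.70 to -0.13, edgeR unadjusted p = 0.00689, adjusted p = 1.00), so neither passed after adjustment. Leaving out each rat in turn kept the latter between -0.57 and -0.28. The value of -0.28 was that without MI + UA rat 66, which a supplementary listing of the study places with the vehicle-treated MI rats. MI + UA and Sham differed by -0.07 (95% confidence interval -0.36 to 0.23).

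Hcn2 (ENSRNOG00000008831) was at 32.7, 64.4, 49.2 and 48.3 CPM in Sham, at 49.9, 34.8, 28.4 and 35.0 CPM in MI and at 50.9, 31.6, 40.6 and 33.6 CPM in MI + UA. Sham rat 12 lay among the infarcted rats, and MI rat 36 among the Sham rats. The log2 fold change was -0.38 in MI versus Sham (95% confidence interval -0.76 to 0.00, edgeR adjusted p = 0.213) and 0.08 in MI + UA versus MI (-0.30 to 0.46). The former was -0.22 without Sham rat 17 (edgeR adjusted p = 0.551) and -0.57 without MI rat 36 (edgeR adjusted p = 0.0509).

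**Figure D3:**
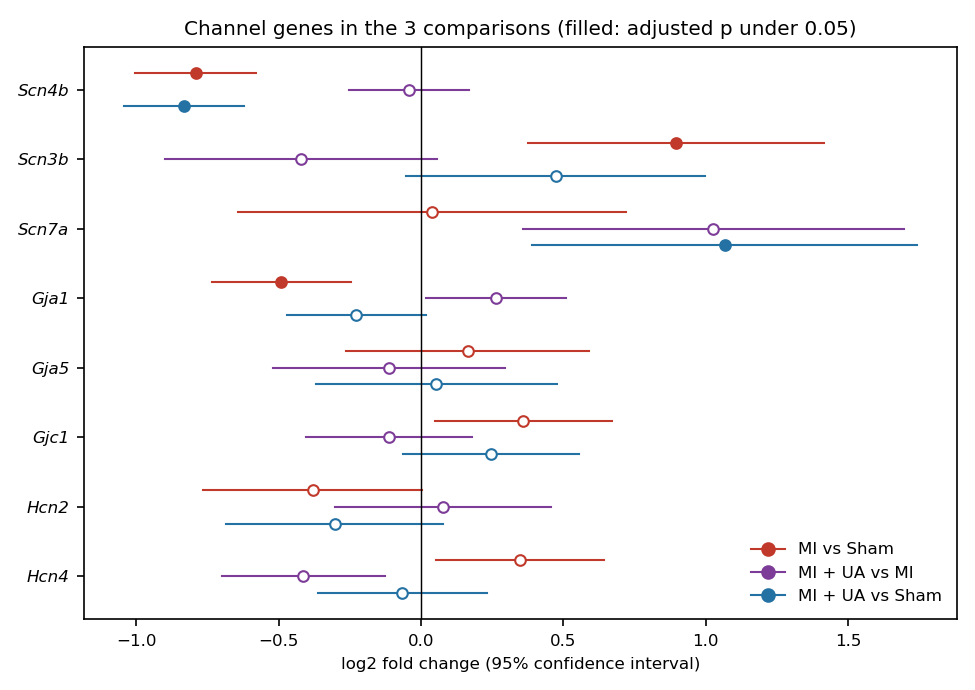
Log2 fold change (horizontal axis) of the 8 channel genes in the 3 comparisons, with 95% confidence intervals and with filled points where edgeR's adjusted p-value was under 0.05. Scn4b lies at -0.79 and -0.83 against Sham, and all intervals for MI + UA versus MI except those of Scn7a, Gja1 and Hcn4 include 0.

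Relative to the summed cardiomyocyte markers, which were lower in MI, every gene is shifted upward in MI by construction. On that scale 4 of the 8 members, Scn3b (1.44 on the log2 scale), Gjc1 (0.93), Hcn4 (0.92) and Scn7a (0.59), were higher in MI than in Sham without overlap, as were 42.4% of all tested genes, and with either direction counted the share of all genes was 42.5%. The members' count was thus near that of all genes and is not a result about them. Gja5 was higher by 0.75 and Hcn2 by 0.18, with overlap. Between MI + UA and MI, Hcn4 was lower in MI + UA without overlap (-0.56 on this scale), and the other 7 members overlapped. Of all tested genes, 4.56% did not overlap there in either direction. The sum was higher in MI + UA than in MI by a log2 difference of 0.12, which shifts every gene downward in MI + UA. In CPM, Hcn4 overlapped between these groups. Between MI + UA and Sham, Scn7a (1.21), Scn3b (0.87) and Gjc1 (0.68) were higher in MI + UA without overlap, and the other members except Scn4b overlapped. Of all tested genes, 31.9% did not overlap there in either direction. The sum differed by -0.44 between MI + UA and Sham, so the built-in upward shift holds here too. The members' count is again not a result about them.

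Within each rat, related channels were also set against each other, as the log2 ratio of their reads with 1 read added to each, which removes the scaling of the library. The ratio of Scn3b to Scn4b was -4.80, -4.74, -4.36 and -4.51 in Sham, -3.62, -2.17, -2.67 and -3.38 in MI, and -3.45, -2.94, -3.64 and -3.32 in MI + UA. Every infarcted rat was above every Sham rat. The mean difference was 1.64 in MI versus Sham and 1.26 in MI + UA versus Sham, each with a two-sided exact permutation p of 0.0286, the smallest that 4 rats against 4 allow, and 0.0857 after adjustment over the 12 tests of ratios. The ratio of Gjc1 to Gja1 was -6.47, -6.11, -6.11 and -6.16 in Sham and -5.43, -5.25, -5.46 and -5.31 in MI, again without overlap. It was higher in MI by 0.85 (exact permutation p = 0.0286, adjusted p = 0.0857). In CPM, Scn3b and Gjc1 were higher and Scn4b and Gja1 lower in MI than in Sham without overlap. The separation of both ratios between MI and Sham follows from that, so their tests there add nothing to the single genes. In MI + UA the ratio of Gjc1 to Gja1 spread from -6.13, within the Sham range, to -5.39, within the MI range. It differed from MI by -0.38 (exact permutation p = 0.0857, adjusted p = 0.129).

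The ratio of Hcn4 to Hcn2 rose by a mean of 0.73 from Sham, where it lay between -1.06 and -0.60, to MI, where it lay between -0.39 and 0.25 (exact permutation p = 0.0286, adjusted p = 0.0857). In MI + UA it was -0.62, -0.17, -0.80 and -0.80, with rat 58 among the MI rats and the others within the Sham range, and it differed from MI by -0.52 (exact permutation p = 0.0571, adjusted p = 0.114) and from Sham by 0.21 (exact permutation p = 0.343). The ratio of Gja5 to Gja1 differed by 0.67 between MI and Sham, with 15 of the 16 pairs of rats higher in MI and a slight overlap (exact permutation p = 0.0571, adjusted p = 0.114), and by -0.41 between MI + UA and MI (exact permutation p = 0.229). No adjusted p of these 12 tests was under 0.05, which this design allows only where several of the tests reach 0.0286 together.

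**Figure D4:**
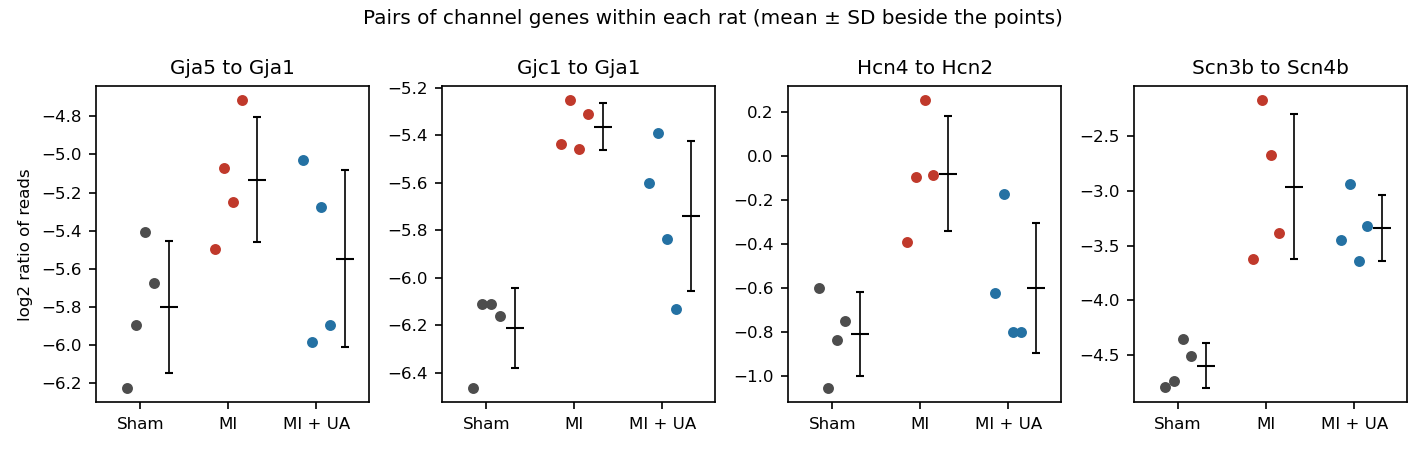
Log2 ratio of reads (vertical axis) for 4 pairs of channel genes in each of the 12 rats by group, with the mean and SD beside the points (n = 4). Scn3b to Scn4b, Gjc1 to Gja1 and Hcn4 to Hcn2 do not overlap between Sham and MI.

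Genes that work with these channels were counted from 6 lists, to be read against the shares of all tested genes that passed, 11.4% in MI versus Sham (5.53% lower and 5.82% higher) and 9.44% in MI + UA versus Sham. Among 9 tested α and β subunits of other sodium channels, 3 passed in edgeR in MI versus Sham, 2 lower and 1 higher, with a median log2 fold change of -0.01 over the list. The 3 became 1 without Sham rat 32, Sham rat 38, MI rat 61 or MI rat 89, and a gene passed as higher in 2 of the 8 fits without a rat. Scn1a fell by 0.84 (edgeR adjusted p = 0.00209). Scn2b, encoding the β2 subunit, rose by 0.99 (edgeR adjusted p = 0.0456) from a mean of 1.03 to 2.05 CPM. Between MI + UA and Sham 4 of the 9 passed, against 9.44% of all genes, 2 lower and 2 higher, and 2 without Sham rat 17. Scn1a was again lower (-0.66), and Scn2b (1.42) and Scn2a (1.38) were higher. Among the β subunit genes named here, Scn4b fell and Scn3b and Scn2b rose in MI.

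Of 12 sodium channel partners, proteins that traffic or modulate the channel, 3 fell (5.53% of all genes) and 1 rose (5.82%) in MI versus Sham, with a median of -0.30 beside the median of -0.41 over the cardiomyocyte markers. The count of 4 became 2 without Sham rat 32, Sham rat 38, MI rat 61 or MI rat 89. The falls were those of Fgf13, a channel-binding fibroblast growth factor homolog (-0.49), Nedd4l, a ubiquitin ligase (-0.38), and Gpd1l (-0.31), and Fgf14 rose by 1.02 to a mean of 3.44 CPM. The list held 0 genes that rose without Sham rat 32, Sham rat 38, MI rat 61 or MI rat 89. Of 9 connexin partners, the adhesion and scaffold proteins of the intercalated disc, 5 fell (5.53% of all genes) and 0 rose, with a median of -0.28, beside a median of -0.41 over the 9 cardiomyocyte markers, of which 8 were lower. The part of those markers in either list was not tested. The count was 3 without Sham rat 17, Sham rat 32, Sham rat 38, MI rat 61 or MI rat 89. Desmoplakin (Dsp, -0.40), plakoglobin (Jup, -0.37), Cxadr (-0.58), N-cadherin (Cdh2, -0.28) and plakophilin 2 (Pkp2, -0.37) were the 5, and Dsp went from 791 ± 10.4 to 598 ± 51.1 CPM (SD, n = 4 each) beside the fall of Gja1. Among the other connexins and pannexins, 7 of 20 had enough reads for a test, and 0 of these had an adjusted or an unadjusted p-value under 0.05 in edgeR or in DESeq2 in MI versus Sham. Without MI rat 36, 1 of the 7 passed in edgeR as lower in MI.

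Of 9 other genes tied to pacemaking, 1 (11.1%) passed in MI versus Sham, a share like the 11.4% of all genes and so no result about the list. Cacna1g, encoding a T-type calcium channel, rose by 1.09 (standard error 0.18, edgeR adjusted p = 0.000461), from 12.1 ± 3.15 to 25.9 ± 3.88 CPM (SD, n = 4 each), without overlap. Cacna1g (0.72) and Kcne2 (1.91, at a mean of 1.67 CPM) were higher in MI + UA than in Sham, and the count of genes higher there was 0 without Sham rat 12 and 1 without Sham rat 17, Sham rat 32, Sham rat 38, MI + UA rat 29 or MI + UA rat 58. Of 15 transcription factors and markers of the conduction system, 4 rose (5.82% of all genes) and 2 fell (5.53%) in MI versus Sham, with a median of 0.04, and 5 to 6 passed when each rat was left out. Tbx18, a factor of the sinus node and epicardium, rose by 0.80, Cntn2, a Purkinje cell marker, by 1.30, Id2 by 0.80 and Hopx by 0.63, while Prox1 fell by 0.45 and Tbx5 by 0.38. In MI + UA versus MI, 0 of the 61 tested genes of these 6 lists passed in edgeR or in DESeq2, and 5 in edgeR and 4 in DESeq2 had an unadjusted p-value under 0.05. Over all tested genes, 3.79% had such a p-value in edgeR.

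**Figure D5:**
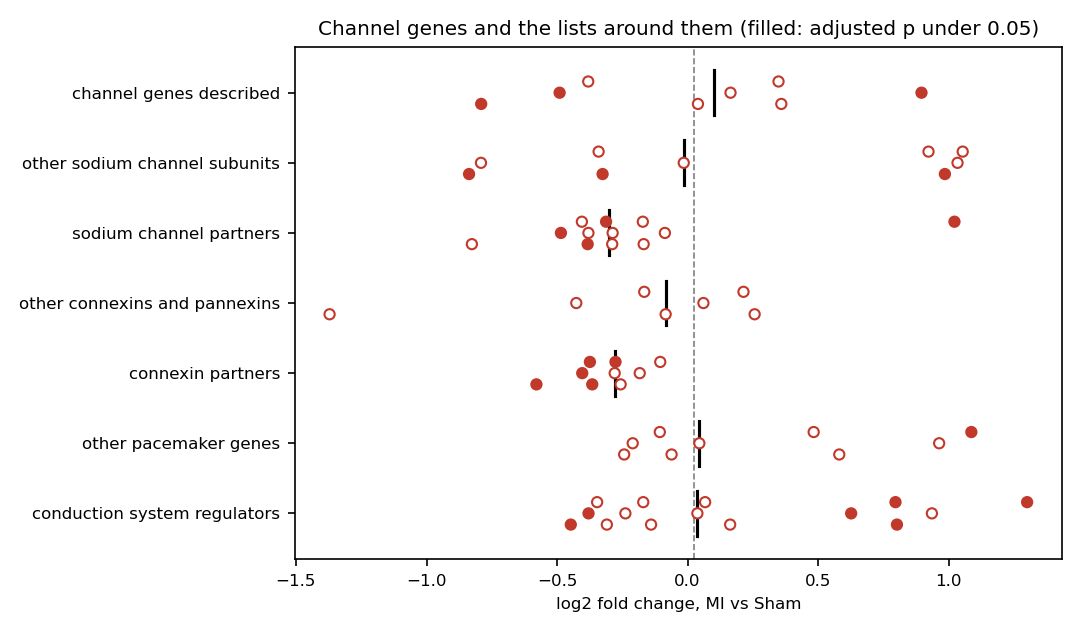
Log2 fold change in MI versus Sham (horizontal axis) of each tested gene of the 8 channel genes and of the 6 lists around them, with filled points at an edgeR adjusted p-value under 0.05, a black bar at each list's median and a dashed line at the median of all tested genes (0.03). All 9 connexin partners lie below 0, and the 8 channel genes lie on both sides.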

How the data were processed

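RNA was read from 12 rat hearts after depletion of ribosomal RNA, with strand-specific paired-end libraries. Per the labels and methods, the authors mapped reads with STAR 2.6.1c to mRatBN7.2, counted them per gene of Ensembl annotation 108 with htseq-count (strand setting not given in the sources used here) and used MultiQC 1.8. The deposited values are raw counts, and 12 columns were used. Summary lines, 51.7% to 57.1% of the tallied reads, were left out. The labels call the molecule polyA RNA. Another MI + UA library of the study was not analysed here.

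Genes with at least 10 counts were tested with edgeR 4.0.16 (R 4.3.3): TMM, 3 groups in one quasi-likelihood fit, Benjamini-Hochberg adjustment over all 18182 genes, threshold 0.05. The fit was tested on simulated data made like MI versus Sham with 18182 genes. There 100 genes were changed by log2 1 and 100 by log2 2, all drawn from genes above a floor of average level. It recovered 73% of the former and 95% of the latter. Changes smaller than log2 1 were not simulated. Replicates were separate rats, and each pair in a group differed by more than sampling noise (1.89 to 15.7 chi-square per gene). Ratios were compared by exact permutation tests (scipy 1.17.1). Alternatives were DESeq2 1.42.0, its size factors, TMM without mitochondrial genes, filterByExpr, no filter, 2-group fits, priors of 0.5 and 5 reads, and leaving out each rat.

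The members, lists and rules were chosen with earlier results of these data known. Named were the 8 members, up to 5 genes per list with an adjusted p-value under 0.05 in any comparison (smallest p in MI versus Sham first), and for each member that passed in MI versus Sham the 3 genes nearest in course at an average log2 CPM of at least 1. Tbx5, the marker genes and the ratios to the cardiomyocyte sum were added after their values were seen. Some genes that the rule names are not reported here.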

Additional observations from a re-analysis of the deposited data

Results flagged for a closer look

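In 66 groups of 4 rats (the 8 channel genes in log2 CPM, the 4 ratios and 10 sums of marker genes, in 3 groups each), a rat was marked when its gap to the nearest rat took more of the range of its group than Dixon's critical value at the 95% level allows for 4 values. Chance marks about 1 in 20 groups, or 3.3 of 66, and 5 were found.

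Scn7a was highest in MI + UA rat 58, at a log2 CPM of 8.48 against 6.38 to 6.61 in the other 3 rats (gap ratio 0.894), and the Schwann cell marker sum was highest in the same rat, at 91.7 CPM against 32.1 to 41.9 CPM (gap ratio 0.835). Gja1 was highest in MI + UA rat 66, at 9.31 against 8.74 to 8.78 (gap ratio 0.924). The ratio of Gjc1 to Gja1 was lowest in Sham rat 12, at -6.47 against -6.16 to -6.11 (gap ratio 0.857). The Schwann cell marker sum was lowest in Sham rat 38, at 22.9 CPM against 26.9 to 27.7 CPM (gap ratio 0.836).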

How the results depend on the processing

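No paired analysis was possible because each rat gave a single heart to a single group. Scn4b and Gja1 kept their calls in MI versus Sham in all 14 alternative fits each, and Scn3b in 10 of 14, with the losses given above. The number of genes past the threshold in MI + UA versus MI was 0, 3 without a filter on low counts (Enc1, Col2a1 and an unnamed gene, none a channel gene) and 0 to 1 when each rat was left out, and those in MI versus Sham (1468 to 1941) and MI + UA versus Sham (1155 to 1895) stayed within 1.5 times of their values. Leaving out a rat makes 4 rats against 3, where no exact p can be under 0.0571. The 4 ratio differences at an exact permutation p of 0.0286 then ranged from 1.37 to 1.86 for Scn3b to Scn4b in MI versus Sham and from 1.13 to 1.36 in MI + UA versus Sham, from 0.76 to 0.88 for Gjc1 to Gja1, and from 0.62 to 0.84 for Hcn4 to Hcn2. Fold changes near 0 changed sign in 13 fits without a rat, and those left-out ranges were -0.0295 to 0.148 for Scn7a in MI versus Sham, -0.143 to 0.0212 for Scn4b, -0.251 to 0.0325 for Gja5 and -0.0867 to 0.265 for Hcn2 in MI + UA versus MI, and -0.0717 to 0.214 for Gja5 and -0.210 to 0.0661 for Hcn4 in MI + UA versus Sham. Depth limits Scn3b, Gjc1 and Gja5 the most, with as few as 26, 48 and 52 reads in a rat.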

Other observations

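Other markers in the same hearts gave the setting in which the channel genes were read. Of 5 smooth muscle markers, 3 were higher in MI than in Sham with an edgeR adjusted p-value under 0.05, namely Acta2 (log2 fold change 0.56), Tagln (1.02) and Cnn1 (1.56), where 11.4% of all genes passed, and the count was 1 without Sham rat 12, Sham rat 17, MI rat 36 or MI rat 61. Of 7 endothelial markers, 1 (14.3%) passed in MI versus Sham and 1 in MI + UA versus Sham, against 11.4% and 9.44% of all genes. These shares are close, so this is no result about the list. Kdr, a receptor for vascular endothelial growth factor, was lower in MI (-0.50) and in MI + UA (-0.52) than in Sham. Of 3 tested adipocyte markers, 0 passed in MI versus Sham in edgeR or DESeq2, with 2 at an unadjusted p-value under 0.05 in edgeR and 1 in DESeq2. In MI + UA versus Sham 1 of the 3 passed, against 9.44% of all genes. It was Fabp4, a fatty acid binding protein, which was lower (-0.54). The other 2 tested markers had higher means in MI + UA without passing, Adipoq at 0.0714 against 0 CPM and Plin1 at 0.253 against 0.0925 CPM. Among the 5 atrial markers, Nppa was the only gene to pass in MI versus Sham, where 11.4% of all genes passed. Of the 7 Schwann cell markers, 1 passed in MI versus Sham (11.4% of all genes) and in only 1 of 8 fits without a rat. In MI + UA versus Sham 4 passed, against 9.44% of all genes, but 2 without MI + UA rat 58, which stood apart at a marker sum of 91.7 CPM, 2 without Sham rat 12 and 1 without Sham rat 38. Without rat 58 the log2 fold change went from 1.18 to 0.70 for Sox10 (edgeR adjusted p = 0.0174), from 1.47 to 0.91 for Cdh19 (0.0431) and from 1.83 to 1.18 for S100b, which no longer passed (0.0879).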
